A study of Mus musculus with 16 samples.

Results

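Regulatory T cells (Treg) and conventional CD4+ T cells (Tconv) from the spleens of B6 mice were compared gene by gene on 8 of the 16 arrays of the study. The 8 arrays were chosen by their labels as all those of the B6 background, 4 of Treg and 4 of Tconv. The study as a whole also holds 8 arrays of NOD mice, the strain known for spontaneous autoimmune diabetes, which are used here to test where the B6 difference differed and, with the B6 arrays, to choose the genes tested and the probe set of each. All mice were male and 6 weeks old. Their Treg carried green fluorescent protein (GFP) under control of the Foxp3 locus in either of 2 forms. In the line called fusion here (labelled Foxp3-GFP), GFP formed 1 protein with Foxp3. In the line called ires here (labelled Foxp3-IRES-GFP), GFP was made from the same transcript as a separate protein. Treg were sorted as CD3+CD4+GFP+ cells and Tconv as CD3+CD4+GFP- cells, each sorted again for purity on a MoFlo sorter and collected in Trizol. Each cell type of each line was measured on 2 Affymetrix arrays. The 4 B6 groups were therefore fusion Treg, ires Treg, fusion Tconv and ires Tconv, with no treatment. Whether an array held RNA of 1 mouse or of several, and whether the 2 arrays of a group came from separate sorts, is not given in the sources used here, so p-values measure the spread between arrays, part of which may be technical.

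Treg are CD4+ T cells that restrain immune responses and are defined by the transcription factor Foxp3, without which mice and humans develop fatal autoimmunity. They depend on interleukin-2 (IL-2), which they bind through a high-affinity receptor and do not make themselves, and they act in part through the inhibitory receptor CTLA-4, activation of TGF-beta, generation of adenosine and secretion of interleukin-10. In the spleen most of them come from the thymus and share lymphoid tissue with the naive and memory Tconv they were compared with here.

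The sorted cells of both groups expressed CD4 T cell identity genes. On the first principal component of the 8 arrays, which held 68.4% of the variance, Treg arrays lay between 17.9 and 28.4 and Tconv arrays between -24.7 and -19.0. Median intensities per array ranged from 91.2 to 99.0. The 2 arrays of a group differed by an SD of 0.18 to 0.25 (log2) across genes. All 12 CD4 T cell identity genes on the array table were above the filter level (log2 6.05, the 40th percentile of all values) on some B6 array, with summed intensities of 27794 to 31420 in Treg and 27204 to 28745 in Tconv. Cd3g, a chain of the T cell receptor complex, differed by -0.01 ± 0.09 (log2, SE). Some markers of B cells (Cd79a, Ms4a1, Pax5), macrophages (Csf1r, Adgre1), dendritic cells (H2-Aa, Itgax) and NK cells (Ncr1, Klrb1c) stayed below the filter level on all 8 arrays. The CD8 markers Cd8a and Cd8b1 lay above that level on all 8 arrays. Of the whole marker lists, 9 of 15 B cell, 7 of 16 myeloid, 5 of 14 dendritic cell and MHC class II, and 5 of 16 CD8, NK and gamma-delta T cell genes stayed below it, and the others lay above it on some array.

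Foxp3, the gene that carries both reporters, separated the groups on every array. The cells were sorted by GFP made from this locus, so the separation was built into the sort and is no independent result. Its log2 intensity was 11.37 and 11.59 on the fusion Treg arrays, 11.79 and 11.77 on the ires Treg arrays, 7.09 and 7.06 on the fusion Tconv arrays, and 7.40 and 7.01 on the ires Tconv arrays. The lowest Treg value lay well above the highest Tconv value. The difference of 4.49 ± 0.10 was 22.4-fold (limma, adjusted p = 3.78e-14, Benjamini-Hochberg over 12861 genes, as for every adjusted p given here). The difference was 4.40 in the fusion line and 4.57 in the ires line.

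Across the genome, 2447 of 12861 genes tested differed between B6 Treg and Tconv at an adjusted p under 0.05, the threshold for a gene to be called here, or 19% of them. Of these, 1662 genes (12.9% of those tested) were higher in Treg and 785 (6.1%) lower, so that 67.9% of the differing genes were higher. After quantile normalization, which gives all arrays the same distribution, 1583 were higher and 1407 lower, or 52.9% higher. Most differences were small, and 10414 genes did not pass the test. A change of at least 2-fold with the same adjusted p was seen for 297 genes (2.31%) that were higher and 81 (0.63%) that were lower. At 4-fold these counts were 58 and 18, and at 8-fold 23 and 4. The 4 Treg and the 4 Tconv arrays did not overlap for 1803 genes with Treg above (14%) and 991 with Treg below (7.71%). Of the 2447 genes, 1669 (68.2%) also passed with each of the 8 arrays left out in turn, and of the 378 genes with at least 2-fold change, 377 did.

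**Figure D1:**
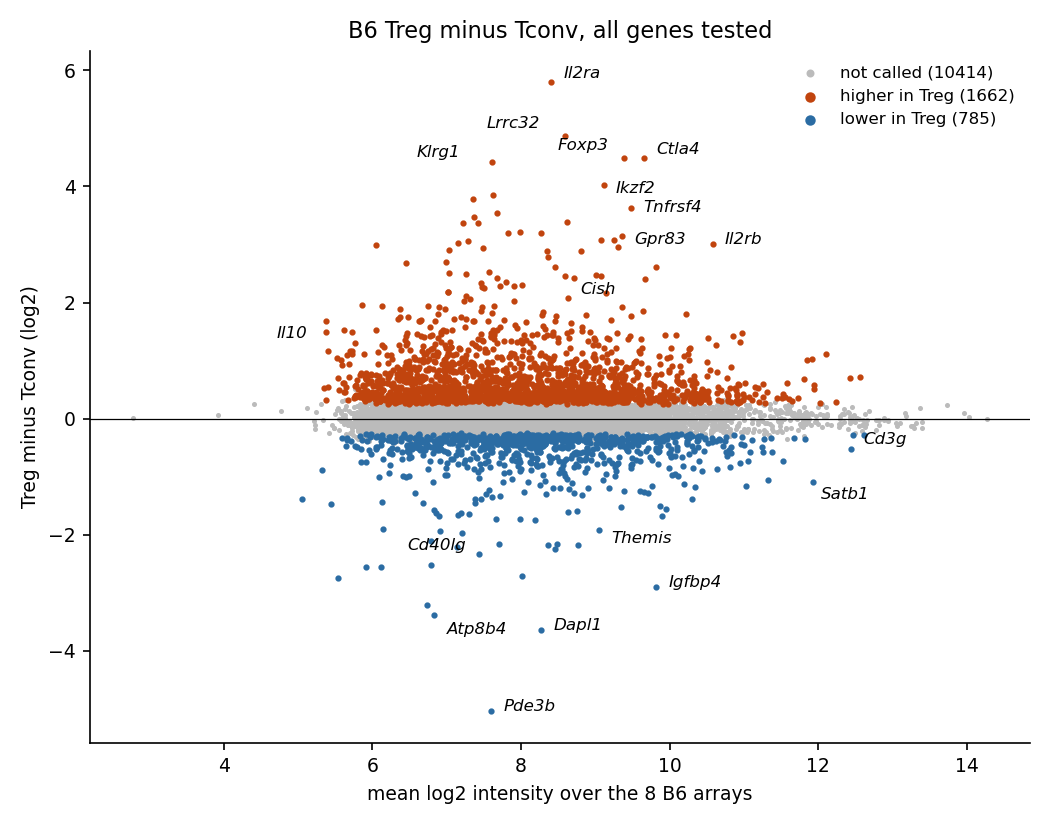
Treg minus Tconv (log2, vertical axis) against the mean log2 intensity over the 8 B6 arrays (horizontal axis), 1 point per gene tested. Orange points (1662) were higher and blue points (785) lower in Treg at an adjusted p under 0.05, grey points (10414) were not called; Il2ra at 5.80 and Pde3b at -5.04 mark the ends.

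Some genes that mark other cell types differed between the groups, although the B cell, macrophage, dendritic cell and NK cell markers named above were below the filter level. Several reached clear levels on some B6 array, with highest values of 7.75 for Cd79b, 8.22 for Cd72, 8.63 for Cd74 and 8.58 for Prf1. Ccl5 reached 9.85, Cd8b1 8.81 and Nkg7 8.63, and in each of these the Treg and Tconv ranges overlapped. Summed over its 14 measured genes, the list of dendritic cell and MHC class II markers reached 1131 to 1308 in Treg and 925 to 976 in Tconv. Of its 9 tested members 2 were higher in Treg and none lower (3 and 0 at an unadjusted p under 0.05, limma). These were Cd74, the chaperone of MHC class II, by 1.92 ± 0.17 and Tcf4 by 0.49 ± 0.09. The 15 B cell markers summed to 1022 to 1190 against 978 to 1008, with Cd72 and Cd79b higher and Pou2af1 lower among 6 tested. The 16 myeloid markers summed to 1080 to 1136 against 989 to 1097, with Cebpb the single called member of 8 tested (0.40 ± 0.09). Leaving out ires Treg 2 gave 2 myeloid genes higher, and the replicate number as a block gave 2 higher and 1 lower. The 16 markers of CD8, NK and gamma-delta T cells summed to 1846 to 2325 in Treg and 2032 to 2770 in Tconv, with 4 of 11 tested lower in Treg and 1 higher. That 1 was lost without fusion Tconv 2, fusion Treg 1, ires Treg 1 or ires Treg 2, and 2 were higher without ires Tconv 2. The largest difference in this list was that of Klrd1, the CD94 chain of NK receptors, at 3.71, 4.41, 4.09 and 4.45 in Treg and 6.67, 6.86, 6.60 and 7.49 in Tconv. Prf1, which encodes perforin, was lower by 1.04 ± 0.10. In bulk RNA fewer cells of a type and less RNA per cell cannot be told apart. The part of these other cell types in the results that follow was not tested. The 9 red cell and platelet markers summed to 477 to 603 in Treg and 539 to 663 in Tconv, and none of their 6 tested members was called by limma, with 1 lower at an unadjusted p under 0.05. Of the 12 CD4 T cell identity genes 3 were higher and 1 lower, none by 2-fold. The 3 became 1 without fusion Tconv 1, fusion Treg 2 or ires Treg 1, or with each array centred on its median. The 1 became 0 without fusion Tconv 1, fusion Tconv 2, fusion Treg 1 or ires Treg 2, and 2 without fusion Treg 2 or with the replicate block. In the red cell and platelet list 1 member was called lower when ires Tconv 2 or ires Treg 1 was left out. The same count was found with the replicate block, all 16 arrays in the fit, array weights, median centring or quantile normalization.

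Il2ra, the CD25 chain that makes the IL-2 receptor high-affinity, had the largest fitted positive difference. It read 11.26, 11.37, 11.35 and 11.22 on the Treg arrays (fusion 1, fusion 2, ires 1 and ires 2, the order used throughout) and 5.27, 5.56, 5.36 and 5.82 on the Tconv arrays. Its Treg values spread little, and its Tconv values all lay below the filter level. The fitted difference was 5.80 ± 0.11 (adjusted p = 1.04e-14). Where a group lies below the filter level, as here, no fold is given, since the array does not measure such a level well. Lrrc32, which encodes GARP, the surface anchor of latent TGF-beta on Treg, followed with 10.98, 11.23, 10.99 and 10.91 in Treg and 6.21, 5.93, 6.30 and 6.22 in Tconv, a difference of 4.86 ± 0.11.

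Ctla4, the inhibitory receptor for CD80 and CD86, read 12.37, 11.998, 11.58 and 11.66 in Treg and 7.13, 7.73, 6.97 and 7.85 in Tconv. Its difference was 4.48 ± 0.18, and both fusion Treg arrays lay above both ires Treg arrays. Klrg1, an inhibitory lectin-like receptor of differentiated T cells, read 10.46, 10.10, 10.09 and 8.65 in Treg and 5.11 to 5.76 in Tconv, a difference of 4.43 ± 0.22. Its ires Treg 2 array stood below the other Treg arrays yet far above every Tconv array. Ikzf2 encodes Helios, a zinc finger protein of thymus-derived Treg. It read 11.29, 11.26, 11.02 and 10.93 against 7.29, 7.11, 6.71 and 7.29, a difference of 4.03 ± 0.11.

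Gm4956, a predicted gene named here after its values were seen, read 9.59, 9.62, 9.67 and 9.30 in Treg and 5.71, 5.77, 5.32 and 6.002 in Tconv (3.85 ± 0.13). Predicted genes with a Gm or Rik symbol were otherwise left out of the genes named here. Without them, the remaining genes among the 15 with the largest positive differences were mostly receptors and feedback regulators. Socs2, a suppressor of cytokine signalling, differed by 3.79 ± 0.17 on its brighter probe set and by 1.30 on its other. Tnfrsf4, the costimulatory receptor OX40, differed by 3.64 ± 0.10. Itgae, the CD103 integrin chain that binds E-cadherin, differed by 3.54 ± 0.20, and Ccr8, the receptor of the chemokine Ccl1, by 3.48 ± 0.19. Nrp1 (3.38 ± 0.13) encodes neuropilin 1, and Itgb8 (3.37 ± 0.16) encodes an integrin chain that activates latent TGF-beta. Rgs1, which shortens chemokine receptor signals, differed by 3.37 ± 0.16, and Penk, the enkephalin precursor, by 3.22 ± 0.15. Nrn1, which encodes the surface protein neuritin, had the widest error of the 15, with 9.59, 10.35, 8.73 and 9.06 in Treg against 5.40, 6.50, 6.37 and 6.63 (3.20 ± 0.28). All 15 had 4 Treg values above all 4 Tconv values, against 14% of all genes tested. They were picked by their difference on these same arrays, so this follows from the choice.

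On the other side, Pde3b had the largest fitted negative difference. It encodes a phosphodiesterase that degrades cyclic AMP. It read 4.79, 5.18, 5.10 and 5.24 in Treg and 10.17, 10.15, 9.84 and 10.31 in Tconv. The fitted difference was -5.04 ± 0.12 (adjusted p = 5.55e-14), with every Treg value under the filter level. Dapl1, which encodes death-associated protein-like 1, read 5.90, 6.40, 6.82 and 6.66 against 9.98, 10.10, 10.02 and 10.28, a difference of -3.65 ± 0.13. Here the Treg arrays were lowest in fusion 1.

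Igfbp4, which encodes a secreted insulin-like growth factor binding protein, stayed well above the filter level in Treg (7.74, 8.23, 8.69 and 8.82) and read 11.18, 11.24, 11.30 and 11.37 in Tconv. Its difference was -2.90 ± 0.13, and its fusion Treg values lay below its ires Treg values. Atp8b4, of the phospholipid-transporting ATPase family, and Mctp2, a membrane protein with calcium-binding C2 domains, differed by -3.38 and -3.20. Vipr1, a receptor of vasoactive intestinal peptide, differed by -2.71 on its brighter probe set and -1.29 on its other. Il1rl2, the receptor of the IL-36 cytokines, differed by -2.55 ± 0.09. Sema4a (a semaphorin, -2.25), Slc16a5 (of the monocarboxylate transporter family, -2.21) and Tgfbr3 (betaglycan, which presents TGF-beta, -2.18) were also among the 15 lowest with a named symbol, as were Klrd1, Lypd6b, Tdrp, Rflnb and Als2cl. Als2cl differed by -2.17 on its brighter probe set and by -0.34 on its other. All 15 had 4 Treg values below all 4 Tconv values, against 7.71% of all genes tested. This too follows from the choice of genes by their difference.

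**Figure D2:**
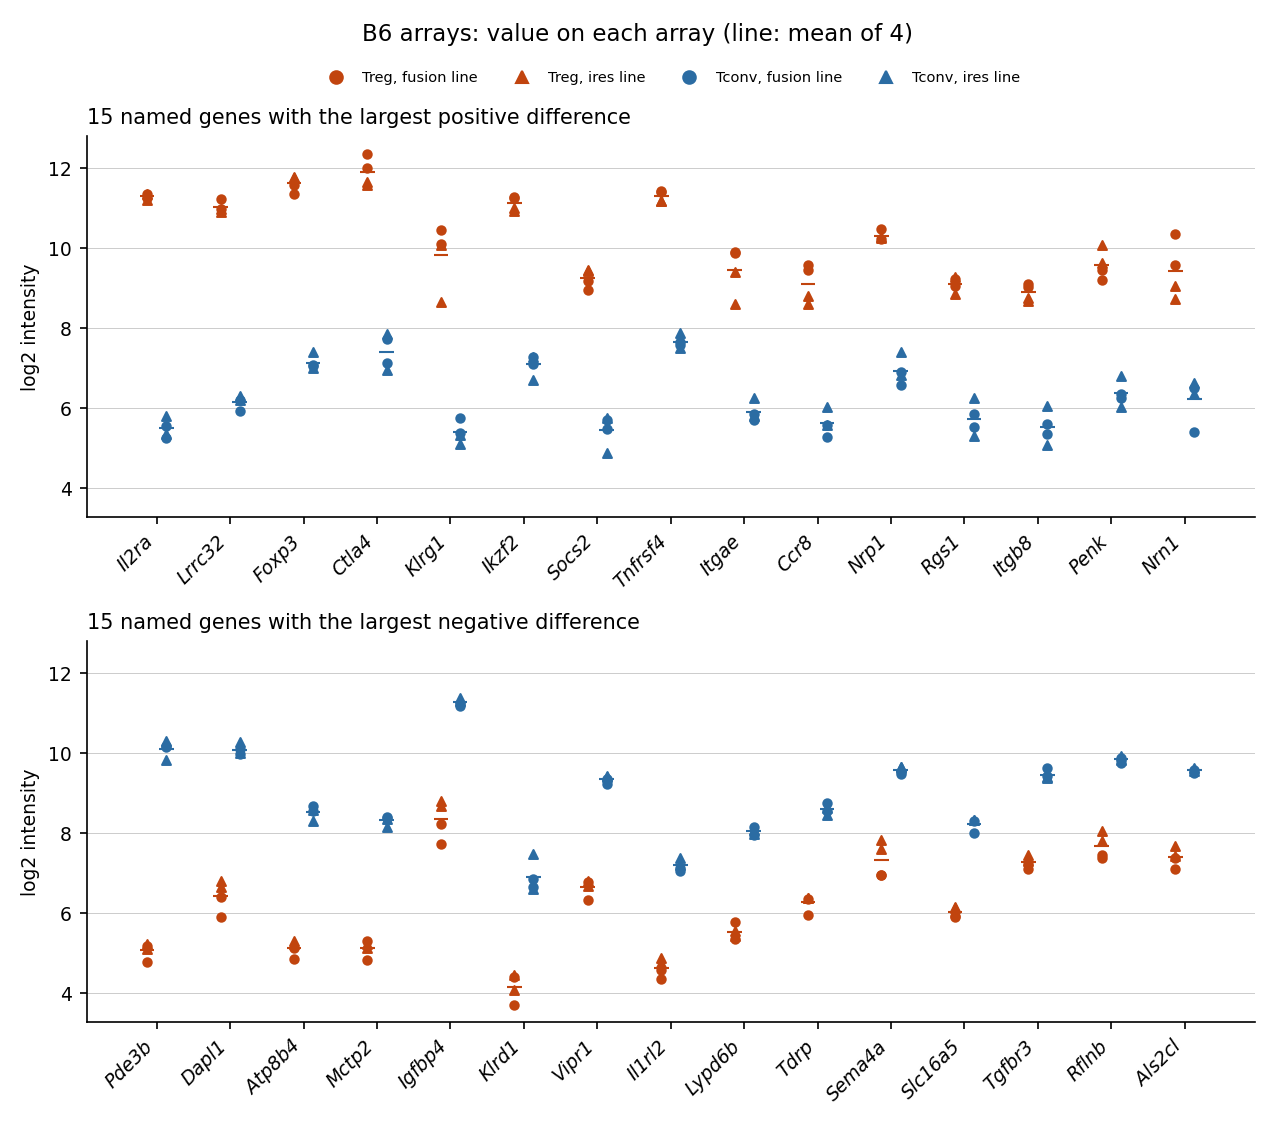
Log2 intensity (vertical axis) on each of the 8 B6 arrays for the 15 genes with a named symbol that had the largest positive (upper panel) and the 15 that had the largest negative difference (lower panel). Orange marks Treg, blue Tconv, circles the fusion line, triangles the ires line, and short lines the mean of 4 arrays; for Il2ra the Treg arrays sit between 11.22 and 11.37 and the Tconv arrays between 5.27 and 5.82.

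Promoter sequences are shown for a few genes with large differences, because the transcription factors that act downstream of Foxp3, IL-2 and the T cell receptor recognise short motifs that can be looked for in them. RefSeq windows of 300 bases (250 before to 50 after a start site, build GRCm38.p6) were searched on both strands for 5 motifs. These were forkhead GTAAACA, STAT TTCNNNGAA, AP-1 TGANTCA, NFAT TGGAAAA, and TCF/LEF CTTTGAA or CTTTGAT. Matches are in capitals. Foxp3 (chrX:7580233-7580532, plus strand) held a STAT match that overlaps an NFAT match. Ctla4 (chr1:60908775-60909074, plus) held an NFAT and a TCF/LEF match. Tnfrsf9 (chr4:150927749-150928048, plus) held a STAT and an AP-1 match, Cish (chr9:107296409-107296708, plus) 2 STAT matches, and Prdm1 (chr10:44458699-44458998, minus) a forkhead and an AP-1 match. Dapl1 (chr2:59484403-59484702, plus), which was lower in Treg, held a forkhead match.
Foxp3: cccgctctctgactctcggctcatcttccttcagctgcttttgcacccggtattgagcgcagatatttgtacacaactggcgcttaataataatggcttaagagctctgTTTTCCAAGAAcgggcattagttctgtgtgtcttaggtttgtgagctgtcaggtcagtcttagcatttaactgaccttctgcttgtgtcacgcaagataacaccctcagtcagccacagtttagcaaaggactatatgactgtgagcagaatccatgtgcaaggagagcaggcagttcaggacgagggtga
Ctla4: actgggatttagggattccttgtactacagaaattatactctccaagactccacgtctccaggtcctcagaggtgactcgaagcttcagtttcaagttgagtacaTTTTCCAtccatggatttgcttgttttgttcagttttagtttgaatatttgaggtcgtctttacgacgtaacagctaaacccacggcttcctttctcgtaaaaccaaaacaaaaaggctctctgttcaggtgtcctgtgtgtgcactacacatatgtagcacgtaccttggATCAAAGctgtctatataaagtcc
Tnfrsf9: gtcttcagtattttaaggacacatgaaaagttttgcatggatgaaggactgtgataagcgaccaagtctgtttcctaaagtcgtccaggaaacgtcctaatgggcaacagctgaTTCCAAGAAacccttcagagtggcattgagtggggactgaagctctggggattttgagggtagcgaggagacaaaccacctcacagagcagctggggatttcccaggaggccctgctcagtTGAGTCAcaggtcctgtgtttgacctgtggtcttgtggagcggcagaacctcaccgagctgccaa
Cish: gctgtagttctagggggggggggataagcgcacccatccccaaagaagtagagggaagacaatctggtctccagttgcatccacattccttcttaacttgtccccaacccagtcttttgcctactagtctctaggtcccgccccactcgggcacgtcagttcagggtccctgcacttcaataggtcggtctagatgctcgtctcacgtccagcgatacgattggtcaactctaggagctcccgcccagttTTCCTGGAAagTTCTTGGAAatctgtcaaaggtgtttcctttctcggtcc
Prdm1: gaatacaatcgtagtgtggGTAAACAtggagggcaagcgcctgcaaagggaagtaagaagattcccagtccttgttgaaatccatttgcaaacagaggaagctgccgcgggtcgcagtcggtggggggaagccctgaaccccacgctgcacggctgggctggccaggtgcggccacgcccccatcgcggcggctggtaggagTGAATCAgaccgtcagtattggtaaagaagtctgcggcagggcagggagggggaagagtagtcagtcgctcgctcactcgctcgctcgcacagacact
Dapl1: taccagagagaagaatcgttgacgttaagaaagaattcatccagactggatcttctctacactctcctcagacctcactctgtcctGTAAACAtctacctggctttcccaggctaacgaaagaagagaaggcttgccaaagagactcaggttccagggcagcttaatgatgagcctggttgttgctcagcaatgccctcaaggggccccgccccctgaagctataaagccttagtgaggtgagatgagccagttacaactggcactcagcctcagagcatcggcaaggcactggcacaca

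A match is a description of the letters and not a bound site. Foxp3 and Tnfrsf9 each have a further window, without a match in Foxp3 and with a TCF/LEF match in Tnfrsf9, and the Il2ra window held none of the 5 motifs. Of the 100 called genes with the largest positive differences, 73 had 83 promoter windows, and of the 100 with the largest negative differences, 79 had 117. AP-1 matches occurred in 16.9% of the windows of the former, 2.56% of the latter and 5.20% of the 12930 windows of all tested genes. STAT matches occurred in 12.05%, 4.27% and 6.87%. Forkhead matches occurred in 4.82%, 1.71% and 2.66%, NFAT matches in 7.23%, 4.27% and 4.52%, and TCF/LEF matches in 8.43%, 5.98% and 6.05%. Over all 32851 windows of the table the shares were 7.81% for AP-1, 8.30% for STAT, 3.65% for forkhead, 6.73% for NFAT and 8.65% for TCF/LEF. No test was made of these shares, and a gene can have several windows.

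Genes were then read in 21 lists by role. Each list is given by its counts at an adjusted p under 0.05, against 12.9% higher and 6.1% lower over all genes, and by its median difference, against -0.01 over all genes. All 38 Treg core genes were higher in Treg, 37 of them by at least 2-fold, with a median of 2.98 and a range of 0.81 to 5.80. The list was drawn up from genes known to mark Treg, so its count is no independent evidence of the direction. Of 31 tested genes associated with naive or conventional T cells, 21 were lower and 3 higher, with a median of -0.57. This list holds Pde3b, Dapl1, Igfbp4 and Slc16a5, and was chosen with earlier results of these data known. Its count is no independent evidence either. Ccr7, the homing receptor for lymph nodes and T cell zones, read 9.96, 10.50, 10.62 and 10.73 in Treg and 11.56, 11.64, 11.64 and 11.59 in Tconv (-1.15 ± 0.12). Satb1, a chromatin organiser of T cells, and Lef1, a partner of Wnt signalling, were lower by 1.09 ± 0.10 and 1.06 ± 0.11. Lower values were also seen for S1pr1, the receptor for egress from lymphoid organs (-0.57 ± 0.10). Arhgap20 (1.75 ± 0.16), Ccr9 (1.20 ± 0.15) and Id3 (0.55 ± 0.12) of the same list were higher in Treg. Foxo1 and Ets1, which maintain quiescent T cells, differed by 0.13 ± 0.11 and -0.04 ± 0.08 and were not called.

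Among genes of effector Treg, the activated subset found in tissues, 27 of 30 were higher and 1 lower, with a median of 1.62. This list was also chosen with earlier results known. It shares genes such as Klrg1, Tigit, Icos, Ccr8 and Itgae with the Treg core list, so its count is no independent evidence. Prdm1, which encodes the repressor Blimp-1 and whose promoter is printed above, read 8.83, 8.86, 7.89 and 7.41 in Treg and 6.18 to 6.34 in Tconv (2.02 ± 0.18). Irf4, a transcription factor induced by antigen receptor signals, read 8.18, 8.87, 8.13 and 8.19 against 6.06, 6.28, 6.15 and 6.62 (2.07 ± 0.16). Icos, a costimulatory receptor, was higher by 1.80 ± 0.15, and Hopx, a homeodomain protein, by 1.82 ± 0.14. The exception was Id2, an inhibitor of E proteins, which was lower (-1.21 ± 0.15). Tbx21 and Myb, which encode the transcription factors T-bet and c-Myb, differed by -0.07 ± 0.13 and 0.15 ± 0.09 and were not called. In Prdm1, Klrg1, Icos and Tigit the fusion Treg values were all at or above the ires Treg values. In Irf4 they were not, with 8.18 in fusion 1 and 8.19 in ires 2. How many of all genes show such an order, here and for Ctla4 and Igfbp4 above, was not counted.

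**Figure D3:**
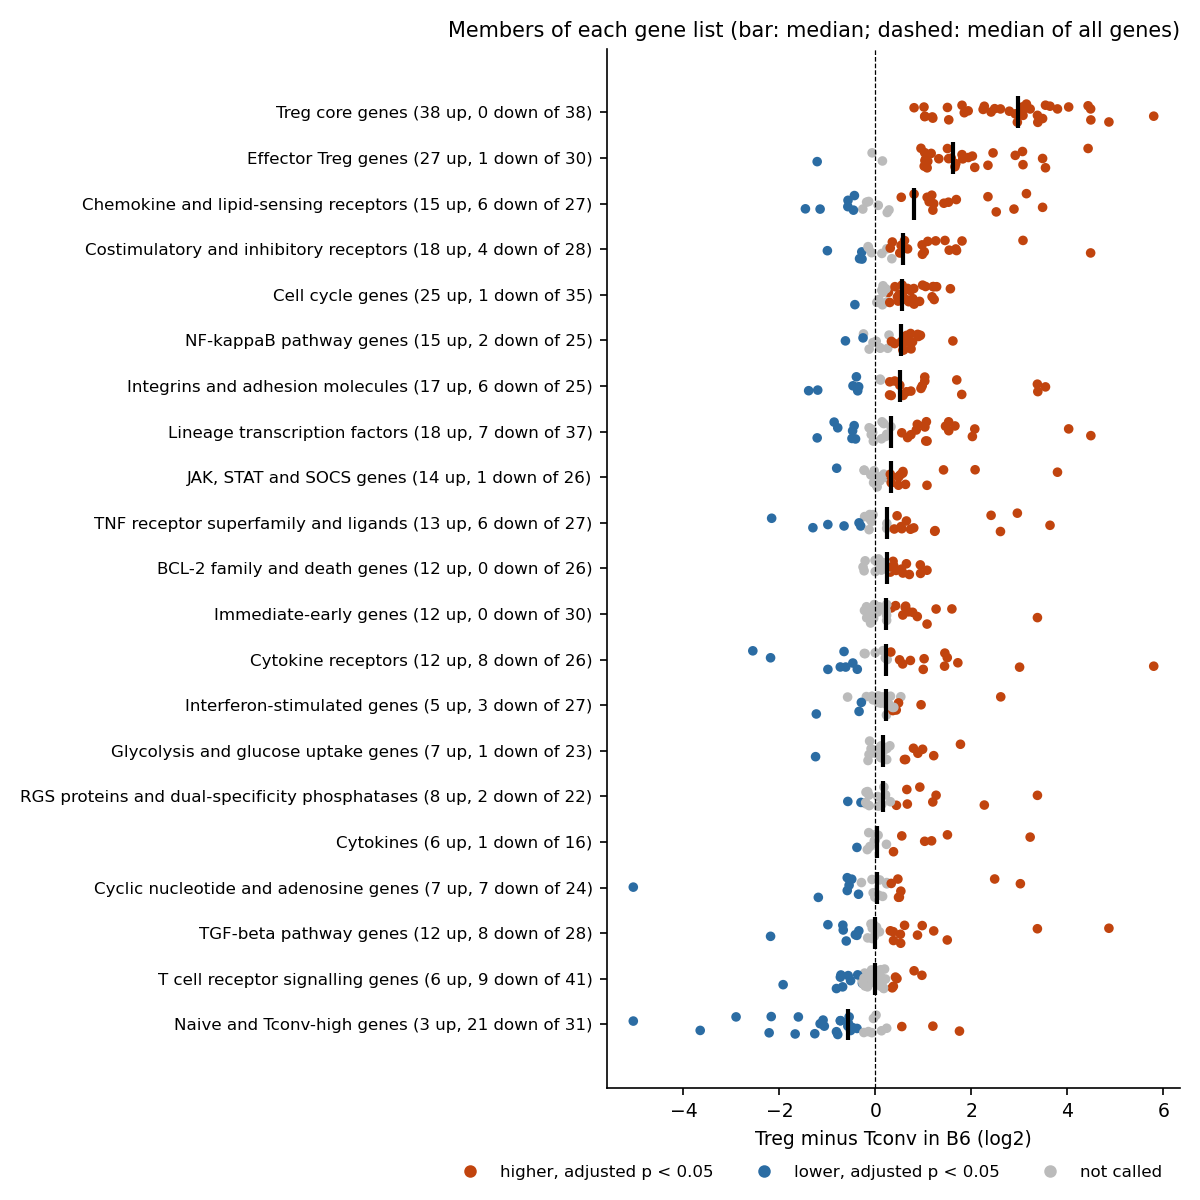
Treg minus Tconv in B6 (log2, horizontal axis) for each tested member of the 21 lists (rows), with orange for higher, blue for lower and grey for not called. The vertical bar marks the median of a list and the dashed line the median of all genes, -0.01; medians run from -0.57 in naive and Tconv-high genes to 2.98 in Treg core genes.

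Surface receptors moved in both directions. Of 28 costimulatory and inhibitory receptors, 18 were higher and 4 lower, with a median of 0.57. Besides Ctla4, the inhibitory receptors Tigit (3.07 ± 0.17), Pdcd1, which encodes PD-1 (1.69 ± 0.12), and Cd200r1 (1.09 ± 0.19) were higher, as was the adhesion receptor Cd2 (0.51 ± 0.09). Crtam, a receptor of activated cytotoxic cells, was lower (-1.001 ± 0.11). The other lower members were small differences, and leaving out any of 5 arrays reduced the 4 to 1 or 2 (1 without fusion Tconv 2, fusion Treg 1 or ires Treg 2, and 2 without fusion Tconv 1 or ires Treg 1).

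In the TNF receptor superfamily and its ligands, 13 of 27 members were higher and 6 lower. The 4 with the largest positive differences were receptors and the 3 with the largest negative differences were ligands. Tnfrsf9 (4-1BB) read 11.05, 10.93, 10.48 and 10.66 in Treg and 7.86, 7.79, 7.82 and 7.84 in Tconv (2.96 ± 0.10). Tnfrsf1b, the TNF receptor TNFR2, and Tnfrsf18, the receptor GITR, were higher by 2.60 ± 0.12 and 2.41 ± 0.10. The ligand Cd40lg, by which helper T cells activate B cells, read 6.39, 7.05, 6.55 and 6.49 against 8.50, 8.95, 8.72 and 8.96 (-2.16 ± 0.14). The further ligands, Tnfsf8 (CD30 ligand) and Fasl, were lower by 1.30 ± 0.22 and 0.99 ± 0.13. Tnfrsf25 and Tnfrsf14 (0.24 ± 0.10 and -0.23 ± 0.09) were not called.

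Of 26 cytokine receptors 12 were higher and 8 lower. The beta chain of the IL-2 receptor, Il2rb, read 12.08, 12.39, 11.95 and 11.90 in Treg and 8.94, 9.25, 8.73 and 9.39 in Tconv (3.003 ± 0.13), next to the difference in its alpha chain Il2ra. The IL-7 receptor Il7r, a survival receptor of resting T cells, was lower (-0.73 ± 0.10). Il1r2, a decoy receptor for IL-1, was higher by 1.72 ± 0.19. The TGF-beta receptors went apart, with Tgfbr1 higher by 1.50 ± 0.12 and Tgfbr2 and Tgfbr3 lower (-0.99 ± 0.09 and -2.18 ± 0.10). Il4ra and Il6st, shared receptor chains for IL-4 and IL-13 and for the IL-6 family, differed by 0.25 ± 0.09 and 0.16 ± 0.08 and were not called.

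Of 27 chemokine and lipid-sensing receptors 15 were higher and 6 lower, with a median of 0.81. Gpr83, a G protein-coupled receptor known as a Treg marker, read 10.88, 10.94, 10.87 and 11.02 against 7.9998, 7.91, 7.66 and 7.56 (3.15 ± 0.10). Ccr4 and Ccr6, which guide cells to skin and mucosal tissue, were higher by 2.89 ± 0.21 and 2.52 ± 0.11. Cxcr6 (-1.46 ± 0.16) and Gpr183, a receptor for oxysterols (-0.57 ± 0.09), were lower with Ccr7 and S1pr1. The retention receptor Cxcr4 differed by 0.28 ± 0.17 and was not called. Of 25 integrins and adhesion molecules 17 were higher and 6 lower. After Itgae, Nrp1 and Itgb8 came Epcam (1.80 ± 0.16), an epithelial adhesion molecule, while Emb (embigin, -1.39 ± 0.09) and Itgb3 (-1.20 ± 0.09) were lower. The leukocyte integrin chain Itgb2 differed by 0.11 ± 0.09. The 6 lower members became 3 without fusion Tconv 2 or without fusion Treg 1.

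The signalling genes below the IL-2 receptor were mostly higher. Of 26 JAK, STAT and SOCS genes and their targets, 14 were higher and 1 lower, with a median of 0.32. Cish, a feedback inhibitor induced by STAT5 whose promoter held 2 STAT matches, read 9.60, 9.84, 9.67 and 9.58 in Treg and 7.72, 7.36, 7.54 and 7.77 in Tconv (2.08 ± 0.11). Pim1, a survival kinase, and Bcl2l1, which encodes the survival protein BCL-XL, were higher by 1.42 ± 0.10 and 1.07 ± 0.09. The related kinase Pim2 was lower (-0.81 ± 0.10), and Jak1, Stat3 and Bcl2 (-0.10 ± 0.09, 0.24 ± 0.08 and -0.24 ± 0.11) were not called. With the replicate block, or after quantile normalization, 2 were lower.

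Genes of T cell receptor signalling differed in both directions. Of 41 genes 6 were higher and 9 lower, with a median of -0.01. After quantile normalization 14 were lower. Themis, a signalling protein needed in thymocyte selection, stood out with 7.75, 8.21, 8.16 and 8.23 in Treg and 9.97, 10.02, 9.97 and 10.08 in Tconv (-1.92 ± 0.10). The Tec kinase Txk and the adaptor Pag1 were lower (-0.81 ± 0.09 and -0.72 ± 0.09). The negative regulators Ubash3b (0.97 ± 0.11) and Sla (0.81 ± 0.09) were higher. Lat, the membrane scaffold of the pathway, and Ptprc, which encodes CD45, differed by -0.21 ± 0.09 and 0.03 ± 0.08 and were not called.

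Feedback regulators of G protein and MAP kinase signals were next. Of 22 RGS and dual-specificity phosphatase genes 8 were higher and 2 lower. Besides Rgs1, the phosphatase Dusp4 read 8.51, 9.02, 8.48 and 8.41 in Treg and 6.27, 6.49, 6.42 and 6.18 in Tconv (2.27 ± 0.12), and Dusp1 and Rgs16 were higher by 1.26 ± 0.10 and 1.19 ± 0.10. Dusp10 was lower (-0.58 ± 0.09) and was the single lower member in 6 of the 8 fits with an array left out (all but those without fusion Treg 2 and ires Tconv 2). After quantile normalization 4 were lower. Of 25 NF-kappaB pathway genes 15 were higher and 2 lower, with a median of 0.54. Map3k8, a kinase upstream of ERK and NF-kappaB, was higher by 1.61 ± 0.10, and the feedback inhibitors Tnip1 and Nfkbia by 0.94 ± 0.10 and 0.90 ± 0.09. Nfkb2, a subunit of the alternative pathway, was higher by 0.88 ± 0.09, while Map3k14, the kinase NIK that activates that pathway, was lower (-0.62 ± 0.10). Map3k14 was the single lower member in the same 6 fits.

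Of 24 genes of cyclic nucleotides and adenosine 7 were higher and 7 lower, with a median of 0.03. Entpd1 and Nt5e, the ectoenzymes CD39 and CD73 that turn ATP into adenosine, were higher. Entpd1 read 8.88, 8.93, 8.58 and 8.28 against 5.47, 5.58, 5.48 and 6.07 (3.02 ± 0.15). Nt5e read 10.07, 10.47, 10.19 and 10.31 against 7.18, 7.76, 7.73 and 8.43 (2.48 ± 0.17). Enzymes that degrade cyclic AMP were lower besides Pde3b, with Pde7a at -1.19 ± 0.10 and Pde4b at -0.59 ± 0.09, whereas Pde2a was higher (0.53 ± 0.12). Adcy6, which makes cyclic AMP, was lower (-0.59 ± 0.09), and the kinase subunit Prkacb was not called (-0.29 ± 0.10). Of 28 TGF-beta pathway genes 12 were higher and 8 lower, with a median of 0.00. Those with the largest positive values were Lrrc32, Itgb8, Tgfbr1 and Bmpr2 (1.21 ± 0.09), a BMP receptor. The inhibitory Smad7 was lower (-0.67 ± 0.12), and Smad2 was not called (-0.16 ± 0.11).

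Of 37 lineage transcription factors 18 were higher and 7 lower, with a median of 0.32. Nr4a1, an orphan nuclear receptor induced by antigen, was higher with Foxp3, Ikzf2, Irf4 and Prdm1, at 10.29, 10.59, 10.35 and 10.34 against 9.39, 9.36, 9.18 and 9.35 (1.08 ± 0.09). The Helios relative Ikzf1 (Ikaros) was lower by 0.86 ± 0.09. Bach2, a repressor of effector differentiation, read 8.40, 8.98, 9.12 and 9.08 in Treg and 9.80, 9.69, 9.66 and 9.58 in Tconv (-0.79 ± 0.13). Zbtb16, the innate-like T cell factor PLZF, was lower (-0.49 ± 0.12), and Cbfb, the partner of Runx proteins, was not called (-0.09 ± 0.09). Of 16 tested cytokine genes 6 were higher and 1 lower. Besides Penk, the largest were Il10, an anti-inflammatory cytokine (1.50 ± 0.21), Csf1, the macrophage growth factor (1.17 ± 0.11), and Ebi3, a chain of IL-35 and IL-27 (1.03 ± 0.10). For Il10 only the fusion Treg arrays, among those of B6, exceeded the filter level. The single lower member, Tgfb3, at 5.57, 5.59, 5.94 and 5.82 in Treg and 6.12, 6.18, 5.84 and 6.32 in Tconv, overlapped between the groups. Its call was lost in 5 of the fits with an array left out, those without fusion Tconv 1, fusion Tconv 2, fusion Treg 1, fusion Treg 2 or ires Tconv 2. The other 17 matched cytokine genes did not pass the filter on low values.

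Among genes of cell state, the cell cycle list was mostly higher in Treg. Of 35 genes 25 were higher and 1 lower, with a median of 0.56. Mki67, the proliferation antigen, read 9.05, 9.18, 8.46 and 8.23 in Treg and 6.74, 7.55, 7.28 and 7.10 in Tconv (1.56 ± 0.17). Ccna2, which encodes cyclin A, and Kif11, a spindle motor, were higher by 1.27 ± 0.16 and 1.22 ± 0.18. Cdk6, which drives entry into the cycle, was higher by 1.21 ± 0.09, and Ccnd3, a cyclin of resting lymphocytes, was lower (-0.43 ± 0.10). The replication clamp Pcna was not called (0.13 ± 0.11). In Treg, both fusion arrays lay above both ires arrays for Mki67, Ccna2 and Kif11. This order was not counted over the list or over all genes. In the test between the lines given below, 0 of the 35 cell cycle genes were called. That test called 0.0544% of all genes, so a list of this size could hardly hold a call. The count says little about the list.

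Of 26 BCL-2 family and death genes 12 were higher and none lower (1 lower at limma's unadjusted p under 0.05), and 7 were higher when each array was centred on its median. With the replicate block, or with quantile normalization, 1 was lower. The caspase gene Casp4 (0.94 ± 0.13) and the pro-death genes Pmaip1 and Bid (0.93 ± 0.10 and 0.71 ± 0.09) were higher together with the survival gene Bcl2l1. Of 23 genes of glycolysis 7 were higher and 1 lower. The glucose transporter Slc2a3 read 10.35, 10.45, 10.41 and 10.26 against 8.31, 8.62, 8.61 and 8.84 (1.77 ± 0.11), and Hif1a, the oxygen-sensing transcription factor, was higher by 1.21 ± 0.13. Pdk1, a kinase that inhibits pyruvate dehydrogenase, was lower (-1.25 ± 0.09), and Ldha and Hk1 were not called (0.10 ± 0.09 and -0.15 ± 0.08). Of 30 immediate-early genes 12 were higher and none lower (1 lower at limma's unadjusted p under 0.05). With quantile normalization 1 was called lower. Gadd45b, a stress gene, was higher by 1.59 ± 0.12, besides Rgs1, Dusp1 and Nr4a1, while Jund was not called (0.23 ± 0.10).

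Interferon-stimulated genes varied with the array as well as with the cell type. Of 27 genes 5 were higher and 3 lower, with a median of 0.23. Gbp3, an interferon-induced GTPase, read 10.10, 9.89, 9.40 and 9.67 in Treg and 7.57, 7.07, 6.63 and 7.34 in Tconv (2.61 ± 0.14), and Isg20, an exonuclease, read 9.65, 9.08, 8.94 and 9.02 against 8.70, 8.10, 7.75 and 8.32 (0.95 ± 0.15). Oas2, a sensor of double-stranded RNA, went the other way, with 7.51, 6.52, 6.73 and 7.06 against 9.16, 7.69, 7.80 and 8.08 (-1.23 ± 0.25). In all 3 genes the fusion 1 array was the highest of its 4, in Treg and in Tconv alike. The 5 higher members became 10 without fusion Tconv 1, and 3 without fusion Tconv 2, fusion Treg 1 or ires Treg 2. The 3 lower members became 1 without fusion Tconv 1, fusion Treg 2, ires Tconv 2 or ires Treg 1. After quantile normalization 3 were higher, with array weights 10 were higher and 1 lower, and with the replicate number as a block 12 were higher.

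The Treg difference was then taken in each B6 line, 2 Treg against 2 Tconv arrays. In the fusion line 1668 genes (13%) differed, 1232 higher (9.58%) and 436 lower (3.39%), or 1076 higher and 710 lower after quantile normalization. Without fusion Treg 2 the higher count was 737. In the ires line 1203 genes (9.35%) differed, 809 higher (6.29%) and 394 lower (3.06%). Without ires Treg 1 the ires count was 791, with 217 lower, and without ires Tconv 2 it had 237 lower. With the replicate number as a block the counts were 2861 in the fusion and 2171 in the ires line. The lines shared 1018 genes, which is 61.0% of the fusion and 84.6% of the ires calls, and 1017 of them had the same direction. Across the 12861 genes the differences of the 2 lines had a Pearson correlation of 0.87 as a description, since genes are not independent replicates. Median differences in the fusion and ires lines were 3.08 and 2.70 for Treg core genes, 2.03 and 1.24 for effector Treg genes, and 0.77 and 0.38 for cell cycle genes.

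A test of whether the Treg minus Tconv difference itself differed between the lines called 7 genes (0.0544%), 6 with a larger value in the fusion line (0.0467%) and 1 in the ires line (0.00778%). Nedd4, a ubiquitin ligase, read 8.29 and 7.90 in fusion Treg, 6.80 and 6.65 in ires Treg, and 6.32 to 6.63 in Tconv. The ires Treg values lay just above the Tconv range and the fusion Treg values far above it, and the difference between the lines was 1.60 ± 0.21 (limma, adjusted p = 0.00276). Ccr4 differed by 3.58 in the fusion and 2.19 in the ires line (1.39 ± 0.22, adjusted p = 0.0135), with fusion Treg highest and fusion Tconv lowest. Il10 read 7.12 and 6.62 in fusion Treg, 5.62 and 5.15 in ires Treg, and 4.43 to 4.78 in Tconv (1.36 ± 0.25, adjusted p = 0.0480). Its ires Treg and Tconv values all lay below the filter level, so the size of this difference is not well measured. The Il10 call was lost with no filter (limma, adjusted p = 0.0625) and with the mean of the probe sets of a gene (0.0508). H2bc3, a histone gene, Slc43a1, an amino acid transporter, and Cd200r1 had larger values in the fusion line by 1.25 ± 0.21, 1.24 ± 0.22 and 1.23 ± 0.22. Lad1, known as ladinin of epithelial anchoring filaments, was the exception, at 6.58 and 6.68 in fusion Treg but 7.96 and 7.82 in ires Treg, with 6.63 to 6.84 in Tconv (-1.24 ± 0.19, adjusted p = 0.0135).

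These calls rested on few arrays. None remained without fusion Treg 1, where 1041 genes had an unadjusted p under 0.05 (limma) and Nedd4 had a difference of 1.41 and an adjusted p of 0.160. None remained after quantile normalization, where 612 genes had an unadjusted p under 0.05 and Nedd4 had 1.66 and 0.193. As fitted, 525 genes had an unadjusted p under 0.05. The count was 1 without fusion Treg 2, 3 without ires Tconv 2, 11 without fusion Tconv 1, 17 without ires Tconv 1, 24 without ires Treg 1 and 55 without fusion Tconv 2. It was 129 with the replicate number as a block. The 7 genes kept their direction in all 8 fits with an array left out. Foxp3 itself had a difference between the lines of -0.17 ± 0.21.

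**Figure D4:**
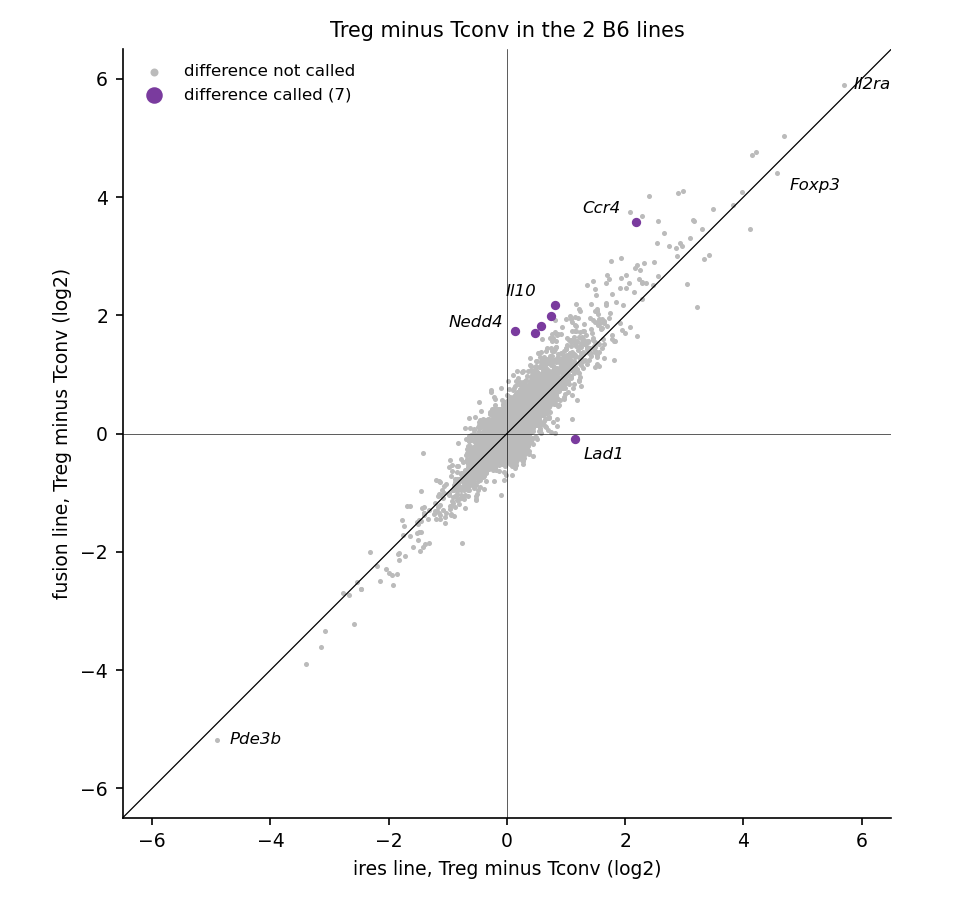
Treg minus Tconv (log2) in the B6 ires line (horizontal axis) against the B6 fusion line (vertical axis), 1 point per gene tested. The 7 genes with a called difference between the lines are purple; Nedd4 sits at 1.73 in the fusion and 0.14 in the ires line, and Lad1 at -0.09 and 1.15.

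The same comparison in NOD mice, from 8 other arrays, called 2351 genes (18.3%), 1375 higher (10.7%) and 976 lower (7.59%). B6 and NOD shared 1574 of their calls, or 64.3% of the B6 and 67.0% of the NOD calls, with the same direction in 1566 and the opposite in 8. The median difference of Treg core genes was 2.98 in B6 and 2.36 in NOD, that of effector Treg genes 1.62 and 1.09, and that of cell cycle genes 0.56 and 0.27. The difference between the backgrounds was called for 105 genes (0.816%), 32 with a higher value in NOD (0.249%) and 73 with a lower value (0.568%), or 57 and 83 after quantile normalization. Without fusion Tconv 1 of B6 the count was 69, with 46 lower, and the lower count was also 46 without ires Treg 1 of NOD and 110 without ires Tconv 2 of B6. With the replicate number as a block the count was 255. Of the 105, 48 had a smaller difference in NOD than in B6 with the same sign, 24 a larger one and 33 the opposite sign, and 89 were called in B6. These signs are those of the fitted values, called or not. The 33 thus include genes with hardly any difference in 1 background, such as Atrnl1 and Tex35 in B6. Over all genes, those called in both backgrounds with opposite directions are the 8 given above.

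The predicted gene Gm4956 had the largest difference between the backgrounds. It was higher by 3.85 in B6 Treg, while all 8 NOD arrays lay between 4.71 and 5.06, below the filter level (NOD minus B6 -3.99 ± 0.17). A530021J07Rik, also named after its values were seen, was lower in B6 Treg (-2.55), and its NOD arrays lay between 4.34 and 5.01 (2.25 ± 0.15). Gsta4, a glutathione transferase, had the difference next in size to that of Gm4956. In B6 it read 8.54, 8.47, 8.36 and 8.67 in Treg and 6.01, 5.97, 6.00 and 6.09 in Tconv, whereas in NOD it ranged from 5.72 to 6.26 in Treg and from 5.70 to 6.14 in Tconv. The B6 arrays did not overlap and the NOD arrays did. NOD minus B6 was -2.46 ± 0.17 (limma, adjusted p = 8.80e-08). Hopx was higher in B6 Treg by 1.82 and differed by 0.16 in NOD (-1.66 ± 0.16), where its Treg arrays ranged from 6.25 to 6.34. Glrx, a glutaredoxin, was higher by 2.17 in B6 and by 0.83 in NOD (-1.34 ± 0.18).

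Of the 38 Treg core genes 9 had a called difference between the backgrounds. Among genes with large B6 values, Lrrc32 was higher by 4.86 in B6 and 3.93 in NOD (-0.93 ± 0.17), Tnfrsf4 by 3.64 and 2.66 (-0.97 ± 0.13), Tnfrsf18 by 2.41 and 1.47 (-0.94 ± 0.12), and Ccr8 by 3.48 and 2.54 (-0.94 ± 0.17). Pdcd1 was higher by 1.69 and 0.68 (-1.01 ± 0.16). Tnfrsf18 shows where such differences can sit, with 10.80 to 11.003 in B6 Treg, 10.55 to 10.76 in NOD Treg, 8.31 to 8.64 in B6 Tconv and 9.08 to 9.29 in NOD Tconv. Pde3b was lower by 5.04 in B6 and 4.20 in NOD (0.84 ± 0.16). Il2ra (5.80 and 4.78, difference -1.02 ± 0.30) and Foxp3 (4.49 and 4.13, difference -0.35 ± 0.22) were not called, with adjusted p of 0.177 and 0.684.

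Other genes had a larger difference in NOD. Cybrd1, an iron reductase, read 6.63, 6.72, 7.14 and 6.68 in B6 Treg and 5.66 to 6.19 in B6 Tconv, against 8.27 to 9.13 in NOD Treg and 5.82 to 6.03 in NOD Tconv (1.82 ± 0.18). Lgmn, the lysosomal protease legumain, was not called in B6 (0.33) and was higher by 1.50 in NOD (1.17 ± 0.16). Atrnl1 and Tex35 had B6 values of -0.17 and -0.11 and NOD values of 1.26 and 1.32. Among the genes lower in B6 Treg, smaller sizes in NOD were seen for Ehd3, an endosomal protein, at -1.59 and -0.31 (1.28 ± 0.17), and Rflnb, an actin regulator, at -2.17 and -0.95 (1.22 ± 0.14). St6galnac2, a sialyltransferase, differed by -0.02 in B6 and by -1.51 in NOD (-1.49 ± 0.20). Every gene named in this and the 2 preceding paragraphs with a called difference kept that call in each of the 16 fits with an array left out. Klrg1 (-1.44 ± 0.31) and Cd74 (-1.85 ± 0.41) did not, and each lost it in 9 of 16. For Cd74 the NOD Tconv arrays ranged from 6.10 to 8.27 and the B6 Tconv arrays from 5.81 to 6.13.

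**Figure D5:**
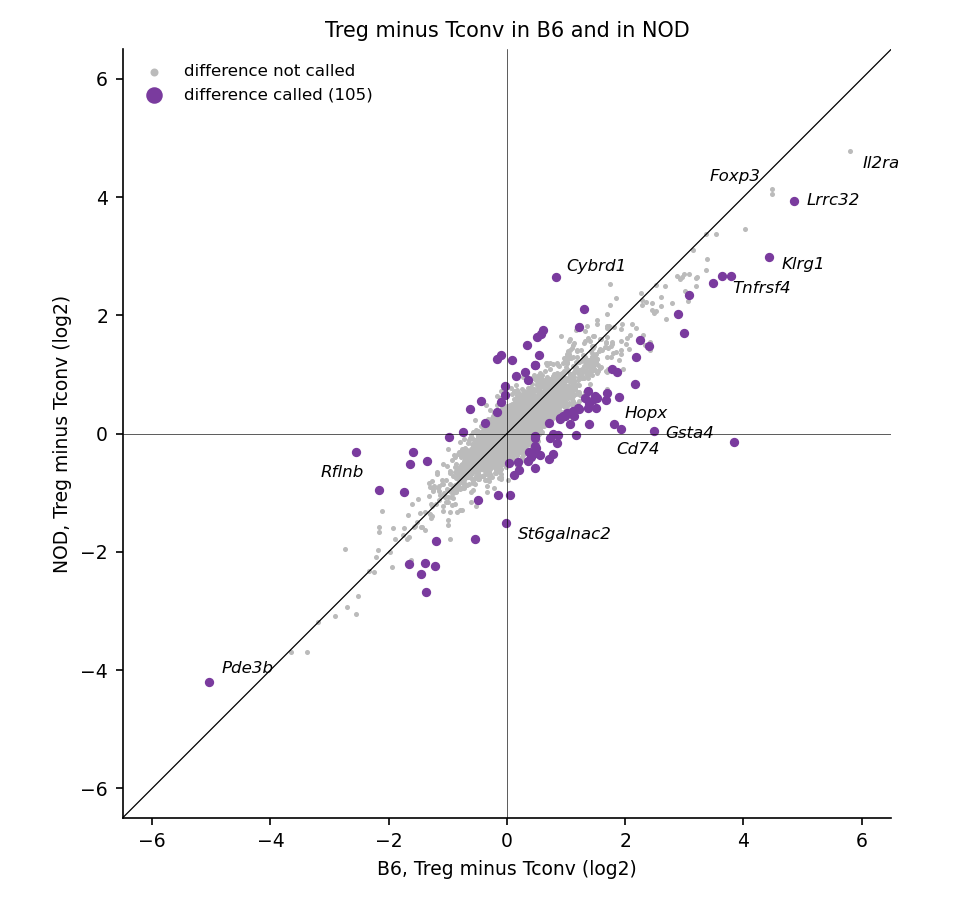
Treg minus Tconv (log2) in B6 (horizontal axis) against NOD (vertical axis), 1 point per gene tested. The 105 genes with a called difference between the backgrounds are purple; Gsta4 sits at 2.50 in B6 and 0.04 in NOD, and Cybrd1 at 0.83 and 2.65.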

How the data were processed

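RNA of sorted Treg and Tconv was labelled with biotin and hybridized to Affymetrix arrays, 8 of them B6. The authors deposited 1 intensity per probe set and array, on a linear scale, summarised with Affymetrix Power Tools and RMA per the submitters' processing notes; no version or genome build is given in the sources read here. Intensities were turned into log2 without a pseudocount. Of 25108 probe sets, 21157 carried exactly 1 gene symbol in the platform annotation, 1341 several and 2610 none; only the first were used, covering 19531 genes. Each of 906 genes with more than 1 probe set was represented by that with the highest mean over all 16 arrays. A gene was tested if 2 or more arrays exceeded log2 6.05, the 40th percentile over the table, which left 12861 genes. Sequence differences between the strains under the probes were not examined.

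Treg minus Tconv was fitted with limma 3.58.1 in R 4.3.3 to the 8 B6 arrays with reporter line as a block (5 residual and 10.5 prior degrees of freedom), two-sided, with Benjamini-Hochberg adjustment over all tested genes. Lines and their difference came from a model with 1 mean per B6 group, and the difference between backgrounds from all 16 arrays in 8 groups. Errors with ± are standard errors. The number of arrays limits the precision of these values, besides low intensity and the choice of probe set. Arrays have no count of depth. Within each group, the labels give its arrays the numbers 1 and 2. Deviations of Treg and Tconv arrays of the same number correlated at 0.40 in both B6 lines, and at 0.24 and 0.08 in NOD. After quantile normalization the values of the B6 fusion and ires lines were 0.29 and 0.34. Across the B6 lines, deviations correlated at 0.36 between Tconv arrays and at -0.01 between Treg arrays, so shared deviations were not limited to a line. Counts with the number as a block are given where they move a count by over 1.5 times. The labels do not say what the numbers mark.

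The B6 arrays, the 21 gene lists, the 6 marker lists and the motifs were chosen with earlier results of these data known. Named genes were the 15 highest and 15 lowest, per list the 4 called with the largest difference in each direction and the 2 brightest not called, the 6 highest and 6 lowest of each tested difference, and 12 fixed genes such as Foxp3 and Pde3b; the text leaves some out. Antigen receptor segments, and symbols starting with Gm or ending in Rik, count in all totals without being named, except 2 chosen after their values were seen. Gene lists hold some genes in common, and members without a matching probe set were not analysed here. Promoters were read from a RefSeq table by symbol. Alternatives were no filter, a filter at the 60th percentile or on B6 arrays alone, median centring, quantile normalization, trend and robust variances, array weights, mean or separate probe sets, all 16 arrays in the fit, no line block, a replicate block, and leaving out each array. The fit was tested on simulated data. Python 3.11.15 (pandas 2.3.3, numpy 2.4.6) made the tables, and matplotlib 3.10.9 the plots.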

Additional observations from a re-analysis of the deposited data

Results flagged for a closer look

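Within a group of 4 B6 arrays, 1 array stood apart from the other 3 by more than Dixon's 95% critical value in 14 of the 318 groups looked at (159 genes, Treg and Tconv). Chance marks about 1 in 20 groups, and 14 of 318 is not above that share. The values that follow are log2. The fusion Treg 1 array was lowest for Satb1 (11.21), Themis (7.75), Tdrp (5.96), Map3k14 (7.50) and Ccnd3 (8.99), all of them genes that were lower in Treg. The fusion Treg 2 array was highest for Irf4 (8.87), Dusp4 (9.02) and Pde4b (7.28). Of the ires Treg arrays, ires 1 was highest for Prf1 (7.67) and lowest for Pcna (10.12), and ires 2 was highest for Pou2af1 (7.47). Of the Tconv arrays, fusion 1 was lowest for Slc16a5 (8.01) and Myb (8.04), and fusion 2 was highest for Prdm1 (6.34). For Satb1, Themis, Tdrp, Map3k14, Ccnd3, Irf4 and Dusp4 the array stood on the side away from Tconv, so it could not cross. For Prf1, Pou2af1, Slc16a5 and Prdm1 it stood toward the other group and did not cross. The lowest Tconv values were 8.23 for Prf1 and 7.78 for Pou2af1.

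The Treg minus Tconv difference itself differed between the 2 B6 lines, by limma's test of that difference, for Nedd4 (1.60, fusion minus ires), Ccr4 (1.39), Il10 (1.36), H2bc3 (1.25), Slc43a1 (1.24), Cd200r1 (1.23) and Lad1 (-1.24).

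By the same kind of test it differed between NOD and B6. Higher values in NOD were found for A530021J07Rik (2.25), Cybrd1 (1.82), Atrnl1 (1.43), Tex35 (1.43), Ehd3 (1.28), Rflnb (1.22), Lgmn (1.17) and Pde3b (0.84). Lower values in NOD were found for Gm4956 (-3.99), Gsta4 (-2.46), Cd74 (-1.85), Hopx (-1.66), St6galnac2 (-1.49), Klrg1 (-1.44), Glrx (-1.34), Socs2 (-1.12), Il10 (-1.07), Id2 (-1.03), Pdcd1 (-1.01), Tnfrsf4 (-0.97), Ccr8 (-0.94), Tnfrsf18 (-0.94), Lrrc32 (-0.93), H2bc3 (-0.93), Ccr4 (-0.86), Slc43a1 (-0.77), Tigit (-0.73) and Itgb3 (-0.62). Of these, H2bc3 kept its call in all 16 fits with an array left out, Socs2 and Id2 lost it in 1 fit each (without B6 fusion Treg 2 and without B6 fusion Treg 1), Itgb3 in 4, Slc43a1 in 8, Il10 and Tigit in 11 and Ccr4 in 13.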

How the results depend on the processing

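The B6 count of 2447 stayed within 1.5 times under every alternative, from 1935 to 2689 with an array left out and up to 3161 with a replicate block. The replicate block kept 2446 of the 2447 calls. In this balanced design it leaves each fitted difference as it was, so it could not change a direction. That block moved the fusion line to 2861, the ires line to 2171, the difference between the lines to 129 and that between the backgrounds to 255. It changed no other count over all genes by more than 1.5 times. With an array left out, the fusion line ranged from 1145 to 1853, the ires line from 791 (without ires Treg 1) to 1267, the difference between the lines from 0 (without fusion Treg 1) to 55 (without fusion Tconv 2), and that between the backgrounds from 69 (without B6 fusion Tconv 1) to 141. Such fits leave 1 array in a group and assume that it varies like the others. The 7 genes called between the lines became 4 with no filter, with a filter at the 60th percentile, with array weights or with every probe set on its own, 2 with all 16 arrays, 12 with trend and robust variances, and 0 after quantile normalization. The cause was not tested. Of 159 genes with values here, none changed direction as a call over 20 alternatives to the B6 comparison. Alternatives that changed only the filter, the blocks, the trend and robust variances or the arrays added to the fit keep a gene's fitted difference. They could not have changed its direction. Over these genes and alternatives, 23 calls were lost and 30 gained. With 4 arrays a group the errors are near 0.1, so small differences can be missed, and values under the filter level bound no fold.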
